A study of Mus musculus with 6 samples.

Results

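GABA, glycine and glutamate transmitter genes were followed by the UMI counts of 5 genes: Gad1, Gad2, Slc32a1, Slc6a5 and Slc17a6. They were chosen by name as the synthesis and vesicle or membrane transport genes of fast transmission, and all 5 had a row in each of the 6 count tables, among 31053 genes in all. Their UMIs (unique molecular identifiers, each standing for one captured RNA molecule) were read in 16225 kept cells of 24215 barcodes.

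GABA and glycine are the fast inhibitory transmitters of the spinal cord, and glutamate is the fast excitatory one. Gad1 and Gad2 encode the GAD67 and GAD65 forms of glutamate decarboxylase, which make GABA from glutamate. Slc32a1 encodes VIAAT (VGAT), which loads both GABA and glycine into synaptic vesicles, Slc6a5 encodes GlyT2, the plasma membrane glycine transporter of glycinergic neurons, and Slc17a6 encodes VGLUT2, which loads glutamate. In the ventral spinal cord, V1 neurons (marked by En1 and Foxd3) and V2b neurons (Gata2, Gata3 and Tal1) are inhibitory, V2a neurons are glutamatergic, and motor neurons are cholinergic.

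The cells came from embryoid bodies at day 6 of a motor neuron differentiation of mouse embryonic stem cells that all carried the HB9::GFP motor neuron reporter. They were wild type (WT), lncMN2_SP-/- (DeltaSP) or lncMN2-/- (KO); the edited lines were made with CRISPR/Cas9, and the labels do not say what SP stands for. Each genotype had 2 libraries, 1 per clone, so genotype and clone can be separated only as far as 2 clones allow. Droplet-based 3' libraries were sequenced, so values are UMI counts per library and cell group, given as CPM: UMIs of the gene per 1000000 UMIs of that library and cell group.

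Kept cells numbered 1612 to 4499 per library, with 20318500 to 47927845 UMIs. The shallowest library was WT 1, whose kept cells had a median of 4157 UMIs; this median lay between 11898.5 and 15112 elsewhere. The long non-coding RNA gene 5330434G04Rik, taken here as lncMN2, had 4 and 6 UMIs in the KO libraries and 661 to 1066 in the other 4. At most 6 kept cell barcodes were shared by any pair of libraries.

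Gad1 (ENSMUSG00000070880) lies on chromosome 2 from 70553072 to 70602014 of GRCm38 (mm10), and Gad2 (ENSMUSG00000026787) on the same chromosome from 22622205 to 22693874. Slc32a1 (ENSMUSG00000037771), a short gene of 2 exons, spans 158610767 to 158615748, also on chromosome 2. Slc6a5 (ENSMUSG00000039728; 49910146 to 49963856) and Slc17a6 (ENSMUSG00000030500; 51622006 to 51671119) are both on chromosome 7. All 5 are protein-coding and on the plus strand. Gad1 overlaps the antisense gene Gad1os and Slc32a1 overlaps the antisense gene Gm14205, and how the counting treated strand is not given in the sources used here.

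The start-site windows of Gad2, Slc32a1 and Slc17a6 are shown here from RefSeq (GRCm38.p6, plus strand, 250 bases before to 50 after the start). Gad2 and Slc32a1 were the 2 members higher in every library in a cell cluster marked by Gata3 and Tal1 than in one marked by En1. Slc17a6 had no UMI in either cluster, and both clusters are described below. RefSeq lists 2 starts for Slc17a6. Capitals mark a GATA word (the letters AGATAA in one form, AGATAG in another, TGATAA in a further form and TGATAG in the last) or the E-box word CAGATG. Each was searched on both strands, and none overlapped another in the windows shown.
Gad2, chr2:22622077-22622376: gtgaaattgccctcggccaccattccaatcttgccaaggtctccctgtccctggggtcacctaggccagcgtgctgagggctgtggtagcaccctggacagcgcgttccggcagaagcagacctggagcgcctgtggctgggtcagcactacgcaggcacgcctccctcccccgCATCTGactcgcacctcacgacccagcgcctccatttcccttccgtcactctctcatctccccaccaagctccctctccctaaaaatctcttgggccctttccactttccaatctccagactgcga
Slc32a1, chr2:158610508-158610807: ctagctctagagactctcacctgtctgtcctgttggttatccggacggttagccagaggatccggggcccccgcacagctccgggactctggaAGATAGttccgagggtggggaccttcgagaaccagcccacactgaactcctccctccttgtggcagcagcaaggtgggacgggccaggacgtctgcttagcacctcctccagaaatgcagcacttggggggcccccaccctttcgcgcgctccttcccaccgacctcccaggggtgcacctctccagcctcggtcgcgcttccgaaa
Slc17a6 first start, chr7:51621580-51621879: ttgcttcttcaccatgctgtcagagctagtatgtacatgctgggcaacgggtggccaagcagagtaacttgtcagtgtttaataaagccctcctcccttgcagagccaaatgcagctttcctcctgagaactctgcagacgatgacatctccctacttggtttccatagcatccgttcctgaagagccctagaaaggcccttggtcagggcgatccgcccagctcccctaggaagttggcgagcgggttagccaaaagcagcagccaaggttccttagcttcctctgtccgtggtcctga
Slc17a6 second start, chr7:51624387-51624686: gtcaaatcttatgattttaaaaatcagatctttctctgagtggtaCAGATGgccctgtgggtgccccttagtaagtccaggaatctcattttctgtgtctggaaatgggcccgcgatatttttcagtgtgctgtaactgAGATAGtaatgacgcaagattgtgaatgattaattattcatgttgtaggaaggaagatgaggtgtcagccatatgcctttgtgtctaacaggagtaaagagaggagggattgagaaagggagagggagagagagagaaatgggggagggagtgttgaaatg

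The Gad2 window held 1 E-box word and no GATA word, and the Slc32a1 window held 1 GATA word and no E-box word. The first Slc17a6 window held neither and the second held 1 of each. Of the windows not shown, that of Gad1 had neither, the first of Slc6a5 had 2 GATA words and the second 1 E-box word. Of all 32851 windows of this length, 29.8% held a GATA word and 17.2% held the E-box word, so both words are common, and the matches separate neither the inhibitory members from Slc17a6 nor one inhibitory member from another.

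To place the members, kept cells were clustered without the 5 members and without other transmitter genes, and clusters were named from marker lists. Of 17 clusters, 3 (998 cells, 6.15% of kept cells) were interneuron-like and 4 (3774 cells) were motor neuron-like. Cluster 15 (199 cells) was led by Foxd3 and En1, cluster 16 (173 cells) by Tal1, Nkx1-1 and Gata3, and cluster 10 (626 cells) by Prl3d1, Shox2 and Calb2. Pooled En1 was 332 CPM in cluster 15 and 0 in cluster 16, and pooled Gata3 was 0.603 and 246 CPM, respectively.

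Transmitter RNA was concentrated in the interneuron-like cells. They held 84.0% of 131 Gad1 UMIs, 87.5% of 463 Gad2 UMIs, 91.0% of 755 Slc32a1 UMIs, 85.7% of 371 Slc6a5 UMIs and 88.7% of 133 Slc17a6 UMIs. The motor neuron-like cells, 23.3% of kept cells, held 5.43% (Slc32a1) to 11.6% (Slc6a5) of the UMIs. All other cells, 70.6% of the total, held 2.70% (Slc6a5) to 6.87% (Gad1). The genes used for clustering did not include the members, but clusters and members come from the same cells, so these levels are a description with no test.

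**Figure D1:**
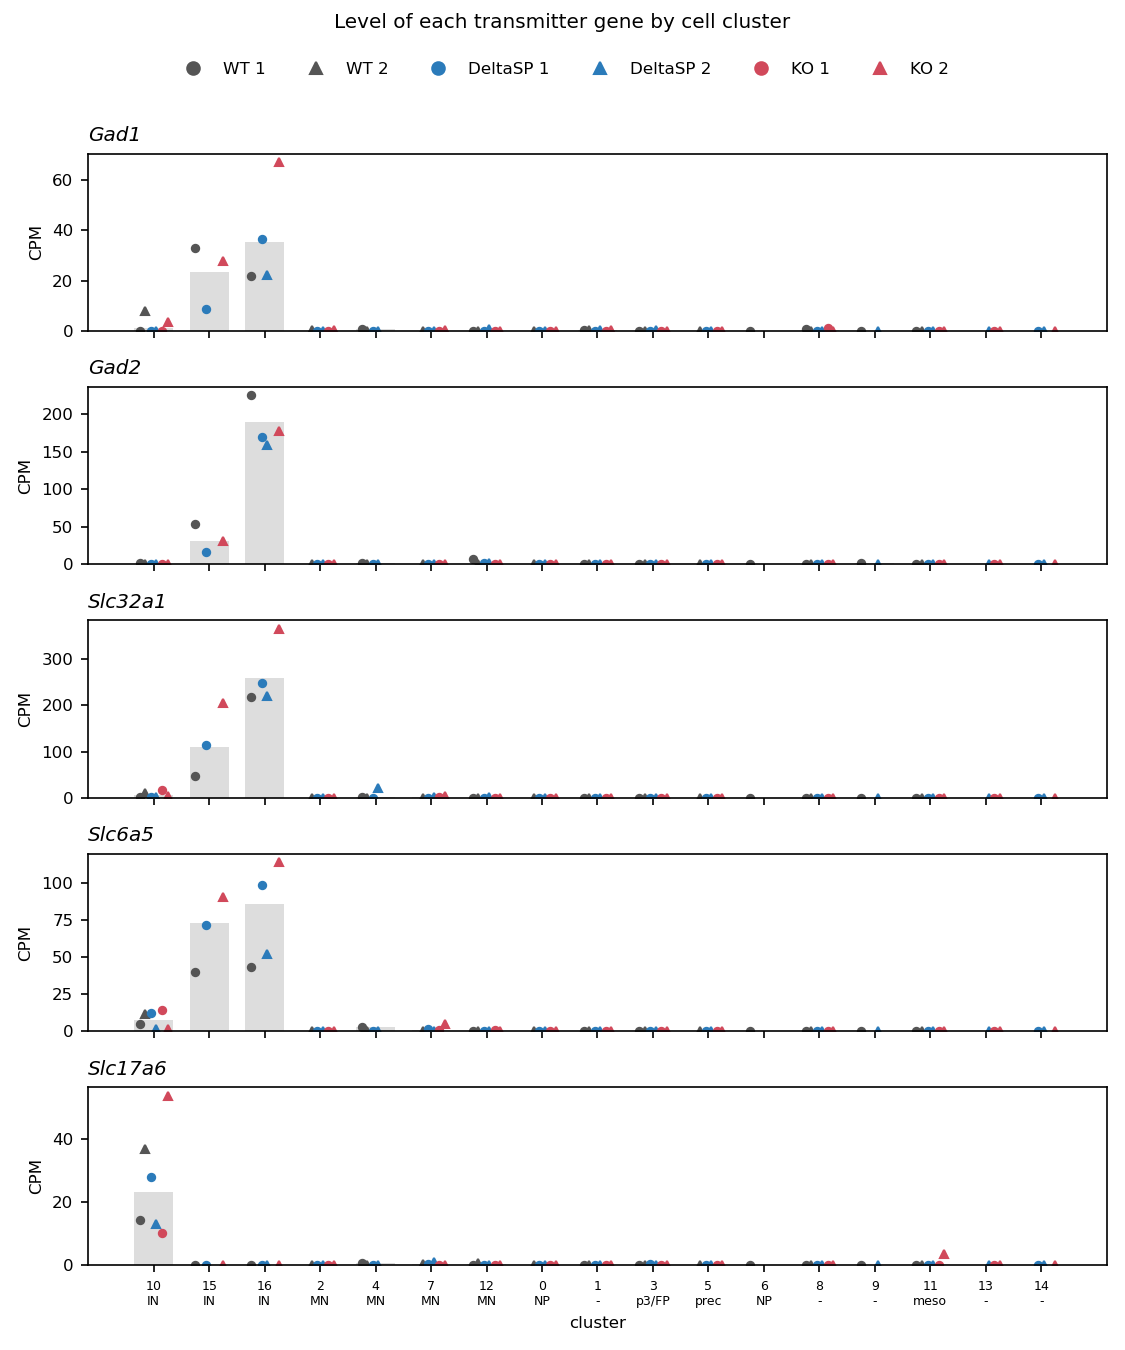
CPM (vertical axes, linear) of each member in each cluster: bars pool all libraries, and points are single libraries with at least 20 cells in the cluster (IN interneuron-like, MN motor neuron-like, NP neural progenitor-like, p3/FP p3 or floor plate-like, prec committing neuronal precursor-like, meso mesoderm or mesenchyme-like, - unnamed). The 4 inhibitory genes rise above the axis mainly in clusters 15 and 16, Slc17a6 in cluster 10.

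The inhibitory genes split between clusters 15 and 16 by gene. Gad2, which makes GABA, was the most uneven: over libraries with at least 20 cells in the cluster it averaged 183 ± 29.1 CPM in cluster 16 (SD, n = 4) and 34.3 ± 18.7 in cluster 15 (SD, n = 3). Next came motor neuron-like cluster 12, at a mean of 2.15 CPM over 6 libraries. Cluster 16 alone held 75.6% of all Gad2 UMIs.

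In cluster 16, Gad2 was at 225 and 194 CPM in WT, 170 and 160 in DeltaSP and 289 and 178 in KO. In cluster 15 it was at 54.2 and 14.4 CPM in WT, 17.2 and 59.1 in DeltaSP and 7.30 and 31.4 in KO. The lowest cluster 16 library thus lay above the highest cluster 15 library, and cluster 16 was the higher of the pair in 6 of 6 libraries.

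Slc32a1, the vesicular carrier for both inhibitory transmitters, followed the same order with a smaller gap. It averaged 263 ± 69.5 CPM in cluster 16 (SD, n = 4), 123 ± 79.7 in cluster 15 (SD, n = 3) and 6.94 ± 6.33 in cluster 10 (SD, n = 6). Cluster 16 exceeded cluster 15 in 6 of 6 libraries.

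Slc6a5 and Gad1 were not separated between the En1 and the Gata3 clusters beyond the spread of libraries. Slc6a5, the glycinergic member, averaged 77.1 ± 34.5 CPM in cluster 16 (SD, n = 4) and 67.5 ± 25.6 in cluster 15 (SD, n = 3), with cluster 16 higher in 5 of 6 libraries. Gad1 averaged 36.9 ± 21.2 CPM in cluster 16 (SD, n = 4) and 23.2 ± 12.9 in cluster 15 (SD, n = 3), with cluster 16 higher in 4 of 6.

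Gad1 per library was at 21.8 and 46.7 CPM in WT, 36.5 and 22.3 in DeltaSP and 24.1 and 67.0 in KO within cluster 16. Its UMIs there numbered only 3 to 20 per library, so these values carry wide counting error. The exact 95% Poisson interval of the pooled Gad1 level, which covers counting error only, ran from 27.3 to 45.0 CPM in cluster 16 and from 16.7 to 32.1 in cluster 15. Gad2 and Slc32a1 intervals of clusters 15 and 16 did not overlap (Gad2, 23.9 to 41.8 and 171 to 211 CPM; Slc32a1, 94.4 to 127 and 236 to 283).

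Slc17a6 had a separate place. It averaged 26.0 ± 16.9 CPM in cluster 10 (SD, n = 6), where 118 of its 133 UMIs lay. By library it was at 14.3 and 36.8 CPM in WT, 27.8 and 13.1 in DeltaSP and 10.2 and 53.6 in KO, so the clones of each genotype lay far apart and the genotypes overlapped. Clusters 15 and 16 had 0 Slc17a6 UMIs in every library: 0 of 199 and 0 of 173 cells, which allows shares of cells with a UMI of up to 1.51% and 1.73%.

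Shares of cells with a UMI gave the same picture. In cluster 16, 80.9% of cells had a Slc32a1 UMI, 69.9% a Gad2 UMI, 44.5% a Slc6a5 UMI and 24.9% a Gad1 UMI, at a median of 9167 UMIs per cell. In cluster 15, at a median of 5107, the shares were 37.7%, 20.6%, 34.7% and 15.1%. In neural progenitor-like cluster 0, which should lack these genes and had a median of 14468 UMIs, they were 0.195%, 0.0650%, 0.0325% and 0%.

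With each cell thinned to 3000 UMIs, and 1499 shallower cells left out, the cluster 16 shares were 50.9% (Slc32a1), 38.4% (Gad2), 26.4% (Slc6a5) and 12.6% (Gad1). Those of cluster 15 were 22.9%, 9.41%, 18.2% and 8.82%. The order of the clusters was thus unchanged for these 4 genes at equal depth. For Slc17a6 in cluster 10, 9.11% of cells had a UMI before thinning and 5.04% after.

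Few cells had both inhibitory and glutamatergic RNA, and each was itself found in few cells. Of the 16225 kept cells, 441 had a UMI of at least 1 of the 4 inhibitory genes and 69 had a Slc17a6 UMI. Only 2 cells had both; they were in cluster 10 of KO 2, with a median of 25886.5 UMIs against 13347 for the KO 2 cells with neither. Doublets were not called, and whether these 2 barcodes hold more than 1 cell was not tested. In cluster 10, 29 of 626 cells (4.63%) had an inhibitory UMI, and 2 of the 57 cells with Slc17a6 did. Whether these genes met less often than unrelated detection would give was not tested, and counts this low cannot show it.

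Cells with both GABA and glycine genes were found in clusters 15 and 16. In cluster 16, 72 of the 77 cells with a Slc6a5 UMI also had a Slc32a1 UMI and 64 of them a Gad2 UMI. In cluster 15, 39 of 69 Slc6a5 cells had Slc32a1 and 19 had Gad2. Among cluster 16 cells without a Slc6a5 UMI, 68 of 96 had Slc32a1 and 57 of 96 had Gad2, and a cell's depth bears on every such count. With cells thinned to 3000 UMIs, the gap for Slc32a1 in cluster 16 was small: 54.8% of 42 cells with Slc6a5 had it, against 49.6% of the other 117. For Gad2 these shares were 47.6% and 35.04%. In cluster 15, thinned, 35.5% of 31 cells with Slc6a5 had Slc32a1, against 20.1% of the other 139.

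Cluster 10 was mixed, and some of its fate factors separated Slc17a6 from the inhibitory members while others did not. Skor1, a transcriptional corepressor, went with Slc17a6. Slc17a6 was at 65.4 CPM summed over the 53 cells with a Skor1 UMI and 14.5 CPM in the rest.

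The Skor1 difference had the same direction in 5 of 6 libraries. Slc17a6 with and without Skor1 was at 97.9 and 19.8 CPM in WT 2, 58.4 and 15.2 in DeltaSP 1, 33.6 and 7.20 in DeltaSP 2, 40.01 and 6.57 in KO 1, and 147 and 32.8 in KO 2. WT 1 had 1 cell with Skor1 and no Slc17a6 UMI in it. The cells with Skor1 numbered only 4 to 19 in the other libraries.

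Lbx1 and Pax2, factors of dorsal and of inhibitory interneurons, went with the inhibitory members instead. In the 54 cluster 10 cells with Lbx1, Slc32a1 was at 25.03 CPM against 2.29 in the rest, Slc6a5 at 36.9 against 2.52, and Slc17a6 had 0 UMIs. In the 15 cells with Pax2, Slc32a1 was at 75.1 CPM and Slc6a5 at 61.0, again with 0 Slc17a6 UMIs. The Lbx1 direction held in 4 of 6 libraries for each inhibitory gene taken alone, in DeltaSP 2 for Slc32a1 only and in WT 1 for Slc6a5 only. The Pax2 direction held for both genes in 2 of 6 libraries, so the Pax2 values rest on few cells and libraries.

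Cells with Vsx1, a factor of V2 precursors, were close to empty of all members. In 100 such cells Slc17a6 was at 1.11 CPM, Slc6a5 at 1.11 and Slc32a1 at 0. With Shox2 (140 cells), which marks a subset of excitatory neurons, Slc17a6 was at 10.7 CPM, below the 26.5 of cells without it. With some listed fate factors, an inhibitory member and Slc17a6 were both above their levels in cells without the factor. With Dmrt3 (90 cells), Slc6a5 was at 27.0 CPM against 1.77 without it, and Slc17a6 at 24.5 against 22.6. With Lhx5 (25 cells), Slc32a1 was at 39.9 CPM against 3.14, and Slc17a6 at 39.9 against 21.8. With Gbx1 (41 cells), Slc32a1 was at 18.4 CPM against 4.31, and Slc17a6 at 36.9 against 21.5. The Slc32a1 levels rest on 9 UMIs in 2 cells with Gbx1 and 14 UMIs in 4 cells with Lhx5. The Slc6a5 level with Dmrt3 rests on 32 UMIs in 13 cells. Levels by these factors were not split by library. Cells with a factor's UMI were deeper for each factor named here (a Skor1 median of 14488 UMIs against 4743), and the part of depth in these levels was not tested.

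**Figure D2:**
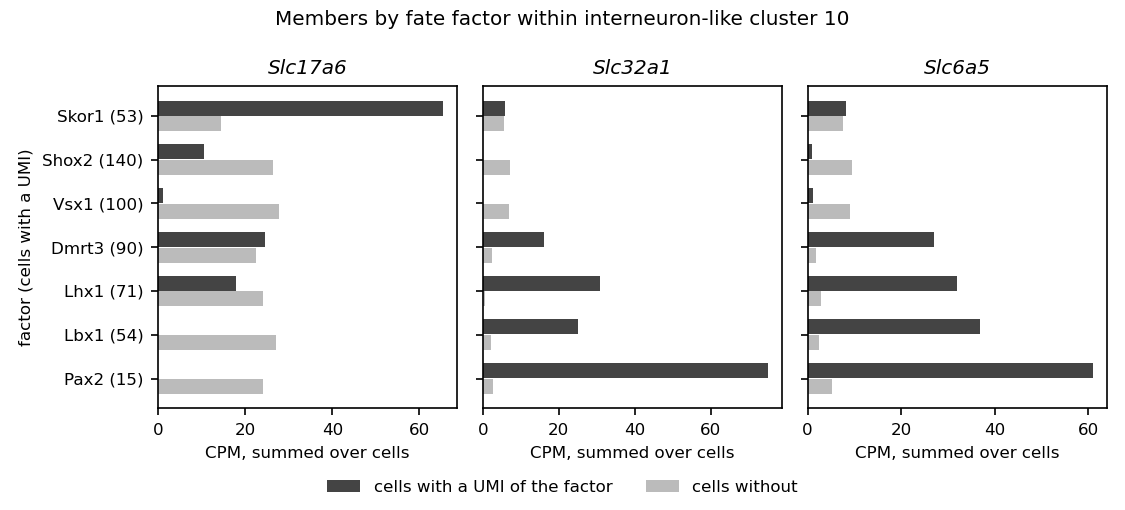
Level in CPM (horizontal axes, linear) of Slc17a6, Slc32a1 and Slc6a5 summed over cluster 10 cells with (dark) or without (light) a UMI of each factor, with the number of cells that have one in brackets. Slc17a6 is higher with Skor1, Slc32a1 and Slc6a5 with Dmrt3, Lhx1, Lbx1 and Pax2. With Dmrt3, Slc17a6 is close to its level without it.

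Motor neuron-like cells held little of any member. Pooled over libraries they were at 0.208 CPM for Gad1, 0.608 for Gad2, 0.712 for Slc32a1, 0.747 for Slc6a5 and 0.191 for Slc17a6. Cells of neither class were at 0.0711, 0.182, 0.213, 0.0790 and 0.0316 CPM. Of the 43 motor neuron-like Slc6a5 UMIs, 17 lay in 15 cells of WT 1 in cluster 4, a cluster of which 981 of 1116 cells came from that library. In 73 motor neuron-like cells with an inhibitory UMI the median depth was 14525 UMIs, against 12048.5 in those with no member.

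The genes most like each member in level over the 17 clusters (Pearson r of log2(CPM + 1), among 9585 genes) overlapped for the inhibitory members. The other members were not ranked, though some were closer than the genes named here (Gad1 with Slc6a5, r = 0.98; Gad2 with Gad1, r = 0.95). Lhx5, a LIM homeodomain factor of inhibitory spinal neurons, was among the closest 3 for all 4 (r = 0.92 with Gad2 to 0.98 with Slc6a5). Lamp5, a lysosomal membrane protein family gene, was the closest to Slc32a1 and Slc6a5 (both r = 0.99), and Gm27199 to Gad1 (r = 0.99) and Gad2 (r = 0.98). The remaining places went to Lamp5 for Gad1 (r = 0.96), to Hcrtr2, an orexin receptor, for Gad2 (r = 0.89), to Slc30a3, a vesicular zinc transporter, for Slc32a1 (r = 0.97) and to Pnoc, the nociceptin precursor, for Slc6a5 (r = 0.97).

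Slc17a6 was closest to Hes2 (r = 0.99), Gm26791 (r = 0.98) and Nrn1 (r = 0.96), the last encoding neuritin. Its r was -0.13 with Gad2, 0.09 with Gad1, 0.14 with Slc32a1 and 0.23 with Slc6a5, while the inhibitory members reached 0.90 (Gad2 with Slc6a5) to 0.98 with each other. These r values describe 17 clusters that share the same 6 libraries, and the high levels of the inhibitory members lie in 2 of them.

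Genotypes were compared over libraries with edgeR's quasi-likelihood test, adjusted over all genes tested. Over all kept cells, no member passed an adjusted p of 0.05 in any of the 3 comparisons. At an unadjusted p under 0.05 the member count was also 0, as it was with DESeq2. Of all 14900 genes, the edgeR counts at that unadjusted p were 4434 for KO against WT, 2553 for DeltaSP against WT and 813 for KO against DeltaSP. The share of all 14900 tested genes that passed was 7.52% for KO against WT, 0.356% for DeltaSP against WT and 0.00671% for KO against DeltaSP. Of the 5 members, 1 had libraries that did not overlap in each comparison: Slc32a1 (KO above WT), Gad1 (DeltaSP below WT) and Gad2 (KO below DeltaSP). Over all genes the libraries did not overlap for 59.3%, 48.1% and 42%, respectively. In bulk sums of this kind, fewer cells of a type and less RNA per cell cannot be told apart.

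Over all kept cells Slc32a1 was at 3.85 and 1.76 CPM in WT (TMM-scaled, as are all values by genotype for all kept, motor neuron-like and interneuron-like cells), 4.32 and 3.56 in DeltaSP and 3.95 and 5.37 in KO. The edgeR log2 fold change of KO over WT was 0.76 ± 0.39 (SE, adjusted p = 0.238). Gad2 was at 4.19 and 1.38 CPM in WT, 2.53 and 2.47 in DeltaSP and 2.40 and 1.93 in KO. For Gad2 the WT clones enclosed all 4 edited libraries.

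Gad1 was at 1.36 and 0.652 CPM in WT, 0.560 and 0.480 in DeltaSP and 0.436 and 0.937 in KO. Slc6a5 was at 2.72 and 0.997 CPM in WT, 2.56 and 1.13 in DeltaSP and 2.27 and 2.16 in KO. Slc17a6 was at 1.13 and 0.805 CPM in WT, 0.881 and 0.415 in DeltaSP and 0.218 and 0.937 in KO. In all 3 genes the KO libraries overlapped the WT libraries, and the log2 fold changes of KO over WT lay between -0.71 (Slc17a6) and 0.29 (Slc6a5).

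**Figure D3:**
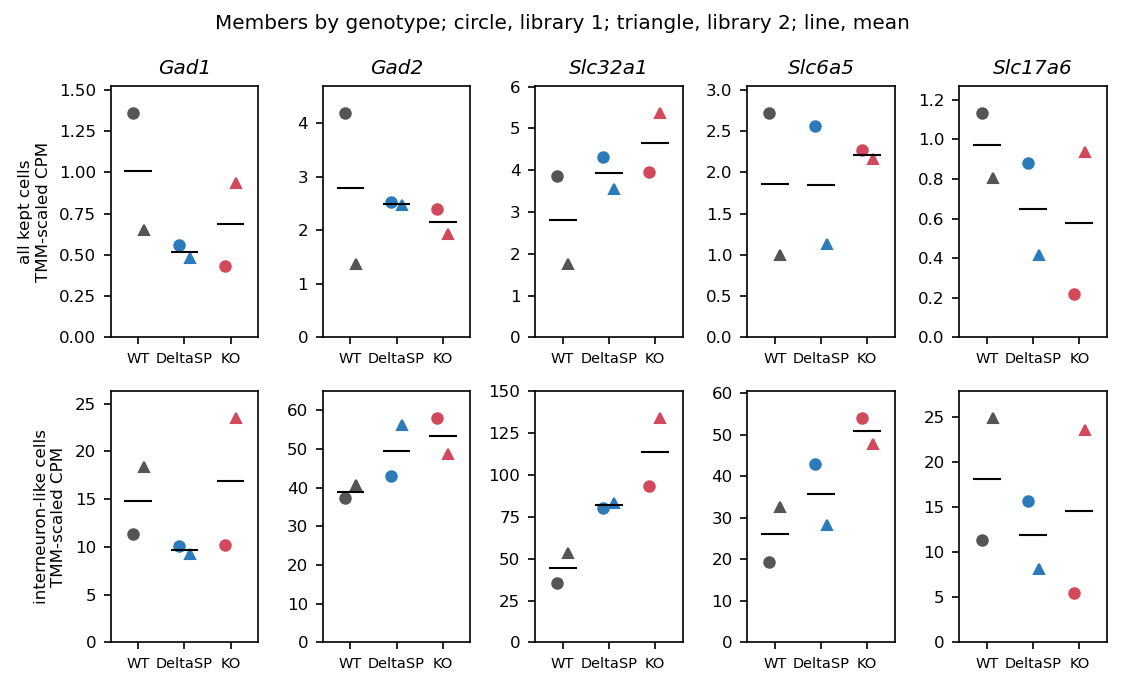
TMM-scaled CPM (vertical axes, linear) of each member over all kept cells (top) and interneuron-like cells (bottom), by genotype; points are libraries and lines the mean of the 2. Slc32a1 in interneuron-like cells is lowest in the 2 WT libraries and highest in the 2 KO libraries.

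Within the interneuron-like cells, Slc32a1 was higher in KO than in WT. It was at 35.3 and 53.6 CPM in WT, 80.4 and 83.3 in DeltaSP and 93.3 and 134 in KO. The 3 genotypes did not overlap, with WT lowest and KO highest. The log2 fold change of KO over WT was 1.39 ± 0.28 (SE, 2.63-fold, edgeR adjusted p = 0.0325).

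Slc32a1 was the only 1 of 5 members that passed in this comparison, against 2.14% of 10193 tested genes. At an unadjusted edgeR p under 0.05 there were 2, Slc32a1 and Slc6a5, beside 1396 of the 10193 genes. Slc32a1 no longer passed without WT 1 (log2 fold change 1.08, adjusted p = 0.190), DeltaSP 1 (1.39, 0.0662), DeltaSP 2 (1.39, 0.0555), KO 1 (1.62, 0.0890) or KO 2 (1.10, 0.445), all by edgeR, and passed without WT 2 (1.68, 0.0118). The call was therefore not kept when any library other than WT 2 was left out, while the direction was the same in each of these 6 fits.

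Slc6a5 and Gad2 leaned the same way without passing. Slc6a5 was at 19.3 and 32.7 CPM in WT, 43.0 and 28.3 in DeltaSP and 54.1 and 47.8 in KO, with KO libraries above WT libraries and an edgeR log2 fold change of 1.04 ± 0.33 (SE, adjusted p = 0.174). Gad2 was at 37.3 and 40.6 CPM in WT, 43.0 and 56.1 in DeltaSP and 58.0 and 48.6 in KO (log2 fold change 0.46 ± 0.26, SE, edgeR adjusted p = 0.487). With Slc32a1, 3 of 5 members had KO and WT libraries that did not overlap, and 42% of all tested genes did, so such a gap is common.

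KO and WT libraries overlapped for Gad1 and Slc17a6 in interneuron-like cells. Gad1 was at 11.3 and 18.3 CPM in WT, 10.1 and 9.25 in DeltaSP and 10.2 and 23.5 in KO. Slc17a6 was at 11.3 and 24.9 CPM in WT, 15.7 and 8.09 in DeltaSP and 5.49 and 23.5 in KO. KO 2 was the higher KO clone for both.

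DeltaSP against WT and KO against DeltaSP gave no member call in interneuron-like cells, where 0.0294% and 0.0196% of all genes passed. For DeltaSP against WT, Slc32a1 had an edgeR log2 fold change of 0.92 ± 0.28 (SE, adjusted p = 0.351). It was the 1 member with an unadjusted edgeR p under 0.05 (0.00739), beside 970 of 10193 genes. For KO against DeltaSP the log2 fold change of Slc32a1 was 0.47 ± 0.25 (SE, edgeR adjusted p = 0.999). No member had an unadjusted p under 0.05 there, beside 540 of 10193 genes. DESeq2 also called no member in either. Libraries did not overlap for 3 of 5 members in DeltaSP against WT (Gad2 and Slc32a1 higher, Gad1 lower), beside 36.6% of all genes, and for 3 of 5 in KO against DeltaSP (Gad1, Slc32a1 and Slc6a5 higher), beside 37.4%. These 3 comparisons share libraries: the WT libraries serve 2 of them, as do the DeltaSP and KO libraries.

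The share of cluster 16 among interneuron-like cells was lower in both WT libraries than in the 4 edited ones, without a test that could pass. Cluster 16, where Slc32a1 is highest, was 8.33% and 15.8% of interneuron-like cells in WT, 24.3% and 30.9% in DeltaSP and 20.9% and 27.8% in KO. The shares of cluster 15 overlapped between the genotypes (23.3% and 14.0% in WT, 17.6% and 9.40% in DeltaSP, 20.9% and 25.8% in KO). WT 2 had only 8 cells in cluster 15 and 9 in cluster 16. Of all kept cells, cluster 16 made up 0.713% ± 0.218 of the WT libraries, 1.36% ± 0.119 of the DeltaSP libraries and 1.09% ± 0.278 of the KO libraries (SD, n = 2 each; two-sided exact permutation p = 0.333 for KO and for DeltaSP against WT, the smallest that 2 against 2 can give).

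**Figure D4:**
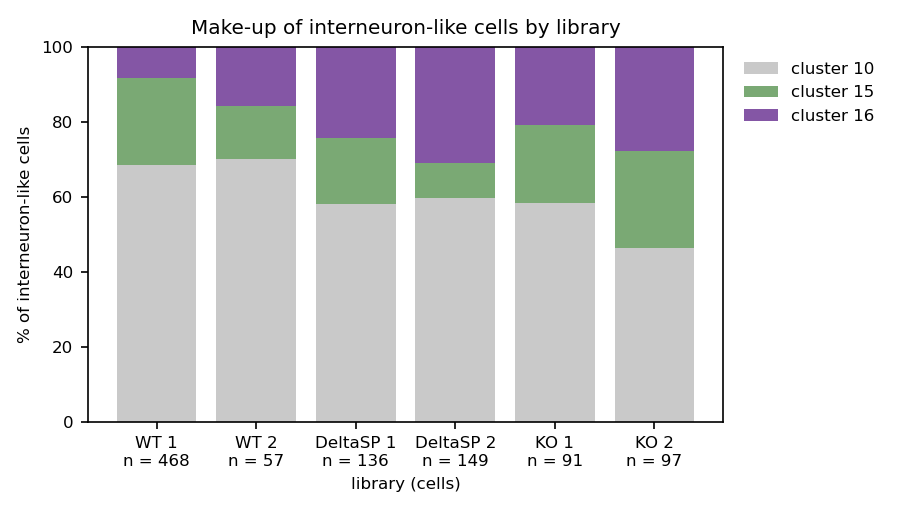
Share (vertical axis, % of interneuron-like cells) of clusters 10, 15 and 16 in each library, with the number of interneuron-like cells (n) under the bars. Cluster 16 takes 8.33% and 15.8% in the WT libraries and 20.9% to 30.9% in the edited ones.

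Marker lists are given here as summed CPM without TMM scaling. The 21 interneuron markers, all detected, summed to 764 and 810 CPM in interneuron-like cells of WT, 764 and 809 in DeltaSP and 985 and 1366 in KO. The 10 neural progenitor markers, all detected, summed to 827 and 774 CPM in interneuron-like cells of WT, 861 and 1194 in DeltaSP and 1161 and 1274 in KO. The 10 committing precursor markers, all detected, summed to 1603 and 1158 CPM in WT, 945 and 1645 in DeltaSP and 1721 and 2200 in KO. These 2 lists and the interneuron list were highest in KO 2 and higher in both KO libraries than in both WT libraries. The same held for the 8 p3 or floor plate markers, of which Ferd3l was at 0, at 13.7 and 45.97 CPM in WT, 44.6 and 39.5 in DeltaSP and 75.4 and 98.8 in KO. The 13 motor neuron markers, of which Tbx20 was at 0, summed to 351 to 506 CPM over the 6 libraries, with WT inside the range of the edited libraries, against 1492 to 2801 CPM in motor neuron-like cells. The part of these lists in the Slc32a1 difference was not tested.

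Within single clusters the KO over WT difference of Slc32a1 had the same direction but did not pass. In cluster 15 it was at 47.2 and 64.9 CPM in WT (cluster values have no TMM scaling), 115 and 124 in DeltaSP and 113 and 206 in KO. In cluster 16 it was at 218 and 174 CPM in WT, 249 and 221 in DeltaSP and 306 and 365 in KO. Both WT libraries lay below all 4 edited libraries in either cluster, by a narrow gap in cluster 16 (WT 1 at 218 and DeltaSP 2 at 221), and the DeltaSP and KO libraries overlapped in cluster 15.

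The edgeR log2 fold change of KO over WT for Slc32a1 was 1.36 ± 0.38 in cluster 15 alone (SE, adjusted p = 0.0542) and 0.57 ± 0.29 in cluster 16 alone (SE, adjusted p = 0.439). With both clusters summed and cluster 10 left out, it was 0.99 ± 0.27 (SE, adjusted p = 0.0584). These 3 fits were chosen after the values were seen.

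Slc6a5 in cluster 15 was at 40.1 and 50.5 CPM in WT, 71.6 and 102 in DeltaSP and 98.5 and 90.7 in KO. In cluster 16 it was at 43.6 and 80.1 CPM in WT, 98.7 and 52.0 in DeltaSP and 129 and 114 in KO. KO lay above WT in both clusters, with edgeR adjusted p = 0.291 and 0.517. Gad2 did not follow: its KO over WT log2 fold change was -1.30 in cluster 15 and -0.06 in cluster 16 (edgeR adjusted p = 0.475 and 0.971), against 0.46 in the whole class.

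**Figure D5:**
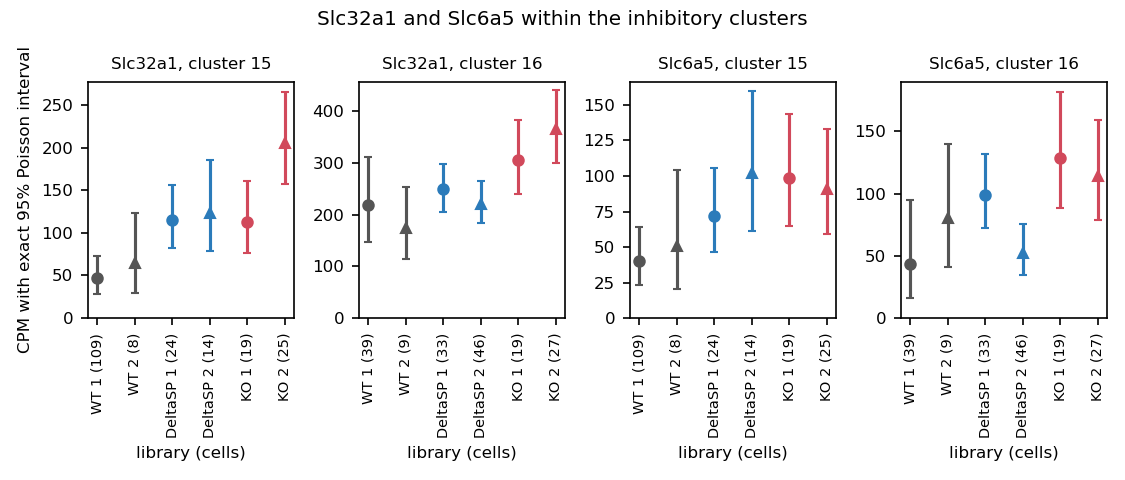
CPM (vertical axes, linear) of Slc32a1 and Slc6a5 in clusters 15 and 16 by library (number of cells in brackets), with exact 95% Poisson intervals that cover counting error only. Both WT libraries lie below the edited ones for Slc32a1, and the WT 2 points rest on 8 and 9 cells.

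In motor neuron-like cells only Slc32a1 and Slc6a5 had enough UMIs to be tested, and neither passed edgeR's test in any comparison, at an adjusted p or at an unadjusted p under 0.05, nor DESeq2's. The share of all 12605 genes that passed was 8.74% for KO against WT, 0.0952% for DeltaSP against WT and 0.00793% for KO against DeltaSP. At an unadjusted edgeR p under 0.05 the gene counts were 3577, 2395 and 845, respectively. Slc32a1 was at 1.64 and 0.0936 CPM in WT, 0.0785 and 1.23 in DeltaSP and 0.473 and 1.37 in KO, which is 1 to 15 UMIs per library. Slc6a5 was at 3.49 and 0.0936 CPM in WT, 0.628 and 0.0817 in DeltaSP and 0.473 and 1.37 in KO. A difference between genotypes was not detectable at this depth.

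Gad2 was too low to be tested there, at 1.85 and 0.468 CPM in WT, 0.392 and 0.817 in DeltaSP and 0.236 and 0.457 in KO, which is 2 to 10 UMIs per library. Both KO libraries lay below both WT libraries for Gad2 and for Slc17a6, which had 3 and 2 UMIs in WT, 1 and 5 in DeltaSP and 0 in each KO library (0 of 427 and 0 of 418 cells, which allows shares of up to 0.703% and 0.718%). Over all genes, both KO libraries lay below both WT libraries for 28.5%, and libraries did not overlap in either direction for 57.9%. They did not overlap for 0 members in DeltaSP against WT, beside 50.6% of genes, and for 1, Slc17a6, in KO against DeltaSP, beside 43.2%.

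Other genes that handle these transmitters were counted from 6 lists: GABA handling, glycine handling, glutamate handling and the GABA, glycine and glutamate receptors. In interneuron-like cells, KO against WT, none of the 6 tested glycine or 10 tested glutamate handling genes passed.

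Among 13 tested inhibitory fate factors in interneuron-like cells, 2 rose in KO over WT and none fell, with a list median of 0.67 (log2) beside 0.03 over all genes. Lhx5 was at 32.0 and 45.8 CPM in WT, 59.2 and 79.2 in DeltaSP and 93.3 and 133 in KO (log2 fold change 1.58 ± 0.29, SE, edgeR adjusted p = 0.0220). Pax8, a paired-box factor of inhibitory interneurons, was at 2.66 and 5.23 CPM in WT, 4.05 and 8.09 in DeltaSP and 17.2 and 34.5 in KO (log2 fold change 2.82 ± 0.60, SE, edgeR adjusted p = 0.0408). Neither passed without WT 1 (Lhx5 1.30, adjusted p = 0.157; Pax8 2.29, 0.293), KO 1 (1.80, 0.0822; 3.22, 0.0862) or KO 2 (1.29, 0.365; 2.22, 0.504), all by edgeR. None of 5 tested excitatory fate factors passed. Lhx5 and the cluster 16 shares given above were both lowest in WT. Lhx5 was higher in KO than in DeltaSP, while the shares of these genotypes overlapped. The part of the shares in the Lhx5 difference was not tested.

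In motor neuron-like cells, receptor genes passed the test while the 2 tested members did not. Of 17 tested glutamate receptor genes 5 fell in KO against WT and none rose, with a list median of -0.73 (log2) beside 0.01 over all genes. Gria2, an AMPA receptor subunit, was at 224 and 163 CPM in WT, 96.0 and 63.3 in DeltaSP and 69.7 and 50.5 in KO (log2 fold change -1.68 ± 0.26, SE, edgeR adjusted p = 0.0179). Grin2b, an NMDA receptor subunit, was at 22.1 and 10.6 CPM in WT, 4.87 and 4.09 in DeltaSP and 2.25 and 1.94 in KO (log2 fold change -2.92 ± 0.41, SE, edgeR adjusted p = 0.0179). Gria4 and Grik4 fell by 1.52 and 1.95 on the log2 scale.

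The receptor count depended on which libraries and cells entered. It was 2 of 18 without WT 1, where Gria2 (-1.41, edgeR adjusted p = 0.0442) and Grin2b (-2.30, 0.0379) still passed. It was 0 of 18 without KO 1 or without KO 2, and 0 of 17 with a looser cell filter (minimum 500 genes, maximum 20% mitochondrial UMIs), where only 4 of 12562 genes passed in all. Gria2 was then at a log2 fold change of -0.82 (edgeR adjusted p = 0.593) and Grin2b at -1.93 (0.202). Cells were clustered and named anew under the looser filter, so the motor neuron-like class was not the same set of cells. It then included a cluster of 1063 cells, 1034 of them from WT 1, while a cluster of 1220 cells led by Arhgap36 was unnamed. With finer clusters (resolution 1.2 in place of 0.6) the count was 2 of 17, and with DESeq2 it was 6 of 17. Except for the looser filter, the share of all genes called in these settings is not given here. The changes in count therefore cannot be read as particular to the receptors.

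Of 6 tested glycine receptor and scaffold genes, Glra2 fell and Glra1 rose in motor neuron-like cells. Glra2, an alpha subunit known from immature neurons, was at 20.7 and 9.08 CPM in WT, 6.59 and 3.02 in DeltaSP and 2.48 and 0.800 in KO (log2 fold change -3.13 ± 0.63, SE, edgeR adjusted p = 0.0285). Glra1, the alpha subunit of the adult spinal cord, was at 5.74 and 8.71 CPM in WT, 20.8 and 18.2 in DeltaSP and 17.5 and 24.9 in KO (2.83-fold, edgeR adjusted p = 0.0203).

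Glra1 and Glra2 did not pass without WT 1 (edgeR log2 fold changes 1.31, adjusted p = 0.0509, and -2.44, 0.0729), KO 1 (1.75, 0.0567, and -4.14, 0.0582) or KO 2 (1.24, 0.176, and -2.52, 0.203). With the looser cell filter, where the class was formed anew, Glra1 had the opposite sign (-0.13, edgeR adjusted p = 0.952) and Glra2 was at -2.01 (0.299).

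Of 7 tested inhibitory fate factors in motor neuron-like cells, 1 fell and 1 rose in KO against WT, with a list median of 0.42 (log2). The factor that fell was Lhx1, a LIM homeodomain factor shared by lateral motor neurons and inhibitory interneurons. Lhx1 was at 131 and 31.5 CPM in WT, 22.3 and 17.3 in DeltaSP and 12.8 and 12.9 in KO. Its level in WT 1 was far above all others. Its edgeR log2 fold change was -2.63 (adjusted p = 0.0348) and -1.26 without WT 1 (0.0379), and it did not pass without KO 1 (-2.61, 0.127) or KO 2 (-2.63, 0.220).

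Motor neuron-like clusters differed between the libraries. Cluster 4 held 981 of the 1029 motor neuron-like cells of WT 1 and 7 to 55 cells in each other library, and its part in the receptor values was not tested. WT 2, with 55 cells in cluster 4, lay above every edited library for Gria2, Grin2b and Glra2 and below every edited library for Glra1. Its make-up differed too, with cluster 7 (256 cells) larger than cluster 2 (155 cells). Cluster 7 was the smaller in DeltaSP (230 and 246 against 337 and 374) and in KO (140 and 106 against 217 and 230). The part of this difference in the receptor values was not tested.

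Over all kept cells, KO against WT, 3 of 18 tested glutamate receptor genes fell (Gria2, Gria4 and Grin2b), as did Glra2 among 6 glycine receptor genes, and none of 10 GABA receptor genes passed. Shmt1, which makes glycine from serine in the cytosol, rose from 18.9 and 19.8 CPM in WT to 39.8 and 42.3 in KO, with 33.3 and 41.3 in DeltaSP (log2 fold change 1.08 ± 0.15, SE, edgeR adjusted p = 0.0258). It was 1 of 7 tested glycine handling genes to pass, and its log2 fold change was 1.06, 1.13 and 1.05 without WT 1, KO 1 and KO 2, where it did not pass (edgeR adjusted p = 0.0542, 0.0924 and 0.257). None of 17 glutamate handling or 5 GABA handling genes did. Chat, which makes acetylcholine, fell by 0.74 on the log2 scale, 1 of 4 cholinergic genes to pass. The 3 glutamate receptors, Glra2 and Chat likewise did not pass without WT 1, KO 1 or KO 2, and all kept their sign. Chat also did not pass with the looser cell filter (-0.70, edgeR adjusted p = 0.0544) or with thinned cells (-0.82, 0.0525), where the 4 receptor genes passed. With DESeq2, 5 of the 18 glutamate receptors fell. No listed gene passed in DeltaSP against WT or KO against DeltaSP in any cell set.

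The highest genes of each handling list in WT did not pass in any comparison over all kept cells. Gcsh, of the glycine cleavage system, ranged from 131 to 163 CPM over the 6 libraries, and Dld, a shared dehydrogenase subunit, from 114 to 135. Got2, the mitochondrial aspartate aminotransferase, was at 107 CPM in WT 1 and at 166 to 199 in the other 5 libraries. Slc38a1, a glutamine transporter, ranged from 120 to 138 CPM, and 2 enzymes of GABA breakdown ranged from 17.9 to 21.9 (Aldh5a1) and from 7.78 to 17.3 (Abat).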

How the data were processed

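Single-cell 3' RNA-seq of 6 libraries was used as deposited: the authors' UMI counts per gene and cell barcode, 1 file per library, made with Cell Ranger 4.0 on mm10 with Ensembl annotation, per the labels. The labels name more than 1 version of the 3' kit. Barcodes under 1000 detected genes or above 10% mitochondrial UMIs were dropped, and the rest were scaled to 10000 UMIs, and clustered with scanpy 1.11.5 (2000 variable genes, 30 components, 15 neighbours) and leidenalg 0.10.2 (resolution 0.6). No doublet caller was used. A cluster was interneuron-like or motor neuron-like with pan-neuronal markers above the mean over clusters and at least 3 markers of that class (at least 2-fold up and 20 CPM); this rule was chosen after the clusters were seen.

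UMIs were summed per library and cell set and tested with edgeR 4.0.16 (filterByExpr, TMM, quasi-likelihood test, genotype as the only term, all 6 libraries in 1 fit, Benjamini-Hochberg threshold 0.05); the steps were tested on simulated data. The spread behind each edgeR p-value is that between the 2 clones of a genotype, pooled over all genotypes in the fit and moderated across genes. Each SE of an edgeR log2 fold change is its absolute value divided by the square root of the quasi-likelihood F statistic. Such an SE is derived from the test and is not a separate estimate of spread. Alternatives were DESeq2 1.42.0, other normalization, filters, clusterings and libraries left out. The members and lists were chosen with earlier results of these data known. Other pathway genes are named where they passed or were among the 2 highest of their list in WT. A few genes of these lists are not reported here.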

Additional observations from a re-analysis of the deposited data

Results flagged for a closer look

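Gad2 values lay in opposite order in the 2 neuron classes, with neither difference called: both KO libraries lay below both WT libraries in motor neuron-like cells (mean TMM-scaled CPM lower by 0.81, a KO minus WT difference of -0.811) and above them in interneuron-like cells (a difference of 14.4 CPM). The difference between the classes was not tested. In interneuron-like cells the edgeR adjusted p was 0.487, and in motor neuron-like cells Gad2 was too low to be tested. Within clusters 15 and 16, which hold most Gad2 UMIs, the log2 fold changes of KO over WT were -1.30 and -0.06, the sign seen in motor neuron-like cells. The motor neuron-like values rest on 9 and 5 UMIs in WT and 2 and 4 in KO, and 28.5% of all genes tested there had both KO libraries below both WT libraries.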

How the results depend on the processing

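Of 487 log2 fold changes of members under alternative settings, 46 changed sign, and no value with a changed sign passed the threshold; the cause was not tested. With edgeR, Slc32a1 in interneuron-like cells, KO over WT, stayed positive in every setting and passed with RLE factors, no filter, the looser cell filter, thinning and finer clusters, and with DESeq2. The looser filter and finer clusters formed the class anew, so it was not the same set of cells. With the looser filter a cluster of 737 cells led by Prl3d1 was unnamed. With finer clusters a cluster of 265 cells led by Vsx1 was committing neuronal precursor-like. For KO against WT in interneuron-like cells, the number of members called, 1 in the report, was 2 with no filter, with thinned cells and with finer clusters. It was 0 with the replicate block (Slc32a1 1.37, adjusted p = 0.0665), with only the 2 genotypes compared (1.40, 0.0690), without the largest interneuron-like cluster and in cluster 15 or 16 alone, the last 3 chosen after seeing the data, and 0 to 1 with a library left out. For DeltaSP against WT it was 1 with thinned cells (Slc32a1 1.85, edgeR adjusted p = 0.0273). The added call for KO against WT was Slc6a5 with no filter (1.02, 0.0435), thinned (1.68, 0.0329) and with finer clusters (1.22, 0.0222). The share of all genes called in each of these settings is not given here, so the changes in count cannot be read as particular to the members. Replicate numbers did not pair the libraries: correlations of same-numbered deviations ran from -0.269 to 0.259. With the replicate block, Lhx5 (1.54, edgeR adjusted p = 0.0604) and Pax8 (2.68, 0.0604) in interneuron-like cells and Chat (-0.75, 0.0512) in all kept cells did not pass either. Where sequencing was shallow (WT 1) or cells were few (WT 2, 8 and 9 cells in clusters 15 and 16), single libraries limit the precision.

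The members' changed signs by setting, all log2 fold changes, were as follows. For DeltaSP over WT, Slc6a5 in all kept cells was -0.0082 with DESeq2, and Slc32a1 in motor neuron-like cells was -0.0087 with RLE factors, -0.022 with no filter, -0.012 with the replicate block and with only 2 genotypes, and -0.34 with DESeq2. In interneuron-like cells, KO over WT, Gad1 was -0.071 without the largest cluster, Gad2 was -1.30 in cluster 15 and -0.059 in cluster 16, and Slc17a6 was 0.074 with finer clusters. For DeltaSP over WT, Gad1 was 0.10 with the looser filter and Gad2 was -0.45 in cluster 15 and -0.47 in cluster 16. For KO over DeltaSP, Gad2 was -0.15 with the looser filter, -0.32 thinned, -0.071 without the largest cluster and -0.85 in cluster 15. Among other genes, Glra1 in motor neuron-like cells was -0.13 with the looser filter.

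With each library left out in turn, the members whose sign changed had these ranges. In all kept cells, KO over WT, they were -1.16 to 0.097 for Gad1, -0.94 to 0.66 for Gad2 and -0.28 to 1.16 for Slc6a5. DeltaSP over WT gave -0.74 to 0.86 for Gad2 and -0.67 to 0.88 for Slc6a5, and KO over DeltaSP gave -0.25 to 0.85 for Gad1, -0.20 to 0.96 for Slc6a5 and -1.54 to 0.54 for Slc17a6. In motor neuron-like cells, KO over WT, they were -0.80 to 3.18 for Slc32a1 and -1.88 to 3.18 for Slc6a5. DeltaSP over WT gave -2.90 to 2.65 for Slc32a1 and -3.96 to 1.83 for Slc6a5, and KO over DeltaSP gave -0.44 to 3.37 for Slc32a1. In interneuron-like cells, KO over WT, they were -0.48 to 0.72 for Gad1 and -1.62 to 0.47 for Slc17a6, DeltaSP over WT gave -1.05 to 0.083 for Slc17a6, and KO over DeltaSP gave -0.076 to 0.32 for Gad2 and -1.12 to 0.96 for Slc17a6.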
